A study of Danio rerio with 4 samples.

Results

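The genes described here serve entry into S phase and the copying of DNA. They are 42 gene symbols chosen by name, from the factors that license replication origins to the cyclins of the G1/S transition. Membership rests on the symbol and not on a level or change, although earlier results of these data were known when the list was drawn up. Of the 42 symbols, 40 were listed in the deposited tables, and mcm6 and dut were not listed. The 40 symbols stood for 41 genes, because rrm2 names 2 genes on different chromosomes. All 41 were listed in every library and all 41 passed the filter on low values, out of 20269 genes and unnamed loci in the tables and 13569 that passed.

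RNA was sequenced from hearts of zebrafish larvae at 5 days post fertilization, in 4 groups of 1 library each. Every group carried Tg(vmhc:mCherry-NTR), a transgene in which the vmhc promoter drives nitroreductase in ventricular cardiomyocytes, so that the prodrug metronidazole (MTZ) kills those cells. Injured larvae were exposed to MTZ at 5 mM for 4 hours, starting 72 hours after fertilization, and carry the label of 2 days after treatment. The uninjured DMSO and injured DMSO groups were then kept in 0.2% DMSO, the vehicle, and the uninjured SIS3 and injured SIS3 groups in 2 µM SIS3, an inhibitor of Smad3 phosphorylation in the TGF-β pathway, from 76 to 124 hours. The labels do not say whether uninjured larvae were also exposed to MTZ, or how many hearts went into a library.

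Replication is prepared in G1, when the origin recognition complex, Cdc6 and Cdt1 load the Mcm2 to Mcm7 ring onto DNA. At the G1/S transition, cyclin D and cyclin E with their kinases release E2F factors, which switch on the transcription of most of the genes described here, and Cdc45 and the GINS complex turn the ring into the active helicase. The larval zebrafish ventricle regrows after ablation partly through division of cardiomyocytes, and pcna is widely used as a mark of cells in the cycle.

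With 1 library per group, differences between groups carry no replicate error and no p-value. Levels are scaled FPKM (fragment counts corrected for transcript length and sequencing depth, with the libraries brought to a common scale). They are given throughout in a fixed order, first the uninjured libraries in DMSO and in SIS3, then the injured libraries in DMSO and in SIS3. Changes are differences of log2(scaled FPKM + 1), where a value of 1 is a doubling. A change of at least 2-fold was called, and counts of calls are set beside the percent of all 13569 genes called in that comparison. In tissue RNA, fewer cells of a type and less RNA per cell cannot be told apart. Coordinates refer to GRCz10.

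The tables listed 17437, 18207, 15691 and 16657 genes, and read depth could not be recovered from FPKM. The labelled tissue carried its markers, and those of cardiomyocytes (8 of 15 listed) summed to 9918, 9440, 9424 and 9070 FPKM. Their members differed in direction, with 4 above and 4 below 0 for injury in DMSO. The cardiac myosin light chain myl7 was at 4979, 4072, 2813 and 2570 FPKM, and the natriuretic peptide nppa at 1063, 1086, 3448 and 3540 FPKM. RNA of other tissues differed between the libraries. Of 13 markers of retina and neurons 9 were listed, and they summed to 174 and 103 FPKM in the uninjured libraries. All 9 were at 0 in injured DMSO, and 4 of the 9 in injured SIS3, where the others summed to 5.47. Of 12 markers of retinal and neural progenitors, which divide in the larva, 5 were listed and summed to 7.48, 4.44, 0.0569 and 0 FPKM. Liver markers (12 of 12 listed) summed to 711, 381, 339 and 3712 FPKM, and macrophage markers (8 of 11) to 20.6, 20.4, 141 and 98.0 FPKM. Exocrine pancreas markers (3 of 10) summed to 543, 629, 17.2 and 153 FPKM, and skin markers (6 of 6) to 1489, 824, 518 and 573 FPKM. The skin markers differed in direction, with 5 of 6 below 0 for injury in DMSO and 3 of 6 for injury in SIS3. Epicardium markers (3 of 5) summed to 64.1, 53.7, 258 and 216 FPKM, and those of endothelium and endocardium (5 of 8) to 163, 183, 175 and 161 FPKM. Erythroid markers (3 of 8) summed to 7310, 6059, 4300 and 5150 FPKM, and skeletal muscle markers (2 of 7) to 952, 691, 320 and 448 FPKM. Nearly all of the erythroid sum was the globin hbae3, at 7266, 6010, 4252 and 5116 FPKM. Of the 3 erythroid markers, 1 was above and 2 below 0 for injury in DMSO. The part of these tissues and cell types in the values below was not tested.

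Most of the replication genes were moderately to highly expressed in every library, and most differed little between libraries. The median level of the 41 members was 20.4, 22.9, 20.2 and 17.1 FPKM, against 6.04, 6.13, 5.94 and 6.10 FPKM for all genes compared. By mean level mcm10, e2f1, ccne1 and orc1 lay lower, at percentiles 29.1, 32.0, 34.7 and 45.5 of all genes compared. The ratio of the highest to the lowest of the 4 libraries had a median of 1.39 over the members, 1.67 over all genes compared and 1.56 over the 7728 genes that averaged 5 FPKM or more. It stayed below 1.5 for 26 of the 41 members (63.4%), against 44.25% of the genes at 5 FPKM or more. It reached 2 for 3 members (7.32%), which were tyms, rpa2 and rfc5, against 24.9% of the genes at 5 FPKM or more. These ratios describe 4 libraries and include the error of each.

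**Figure D1:**
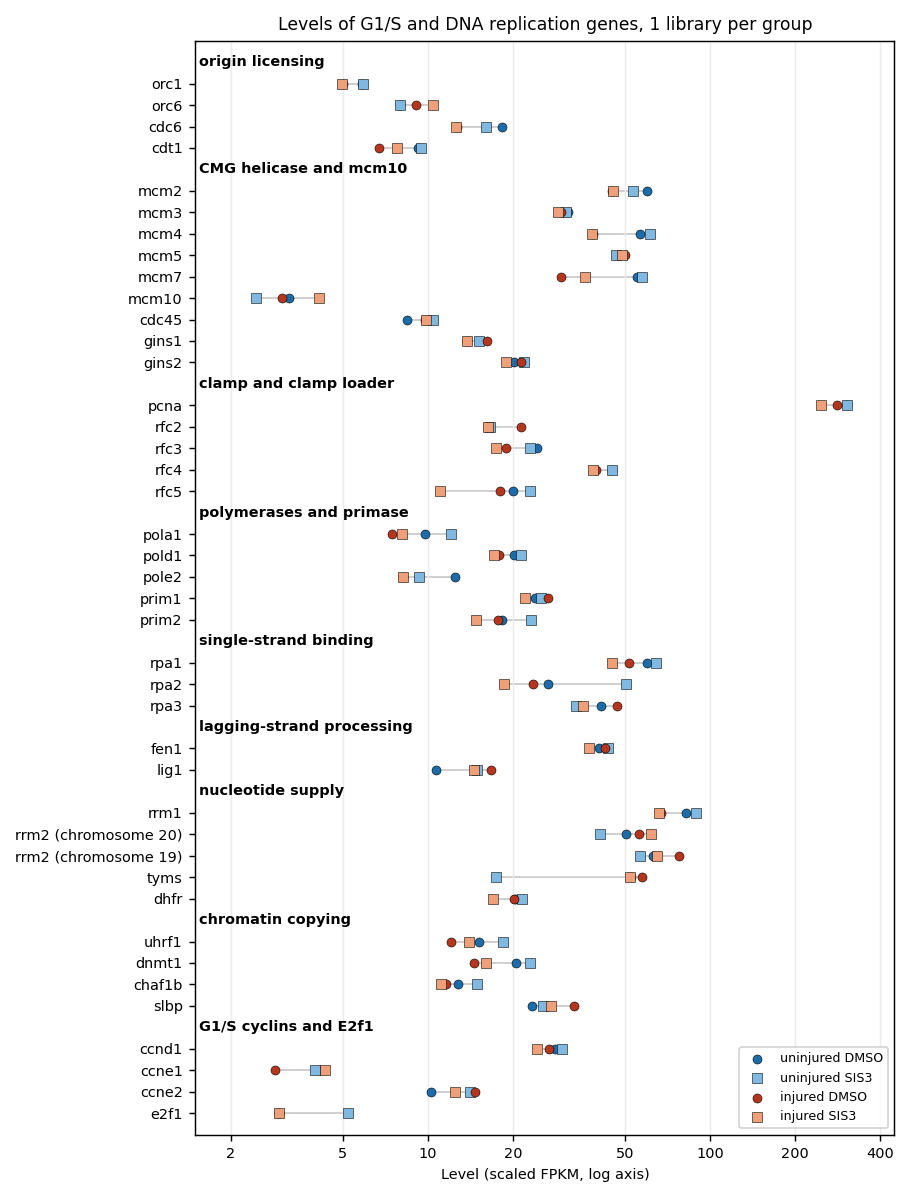
Level of each of the 41 genes in the 4 libraries (scaled FPKM, log axis), in blocks by role. Circles are DMSO and squares SIS3, and the grey line spans the 4 libraries. The lines are short for most genes and longest for tyms, rpa2 and rfc5, and pcna stands alone between 246 and 306 FPKM.

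After scaling, where the members differed, uninjured SIS3 was most often the highest library and injured SIS3 most often the lowest. Uninjured SIS3 held the highest level for 21 of 41 members (51.2%, against 24.8% of all genes compared). Injured SIS3 held the lowest level for 21 of 41 (51.2%, against 22.3%). With the deposited values unscaled these counts were 18 and 17, and the matching shares of all genes were not computed. Unscaled, more members were highest in injured DMSO, and more were lowest in uninjured DMSO, than after scaling. The summed scaled level of all 41 genes was 1399, 1408, 1309 and 1204 FPKM, so the sum of the lowest library lay at −0.23 (log2 ratio) of the highest. Without scaling, injured SIS3 still had the lowest sum, but injured DMSO had the highest.

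The comparison of injury in DMSO addresses whether ablation of the ventricle, 2 days earlier, changed the level of the replication genes. None of the 41 members was called, against 15.3% of all genes (6.48% higher and 8.82% lower), and changes ran from −0.88 (mcm7) to 0.60 (lig1). The median was −0.08 with 25 of 41 below 0, but it was 0.105 with 29 above 0 when the deposited values were left unscaled, a setting that moved the median of all genes from −0.01 to 0.17. At 1.5-fold, lig1 was higher and mcm7 lower, 2 of 41 against 34% of all genes. Of all genes called at 2-fold in this comparison, 42.3% were higher, and 57.9% without scaling.

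In SIS3, most members were lower in the injured library than in the uninjured one. In the comparison of injured with uninjured SIS3, 32 of 41 members were below 0 (30 without scaling), with a median of −0.22, against −0.01 for all genes. Calls were made for 1 member that was higher (tyms, against 6.42% of all genes higher) and 2 that were lower (rpa2 and rfc5, against 6.68% lower), 3 of 41 against 13.1% in either direction. At 1.5-fold, 8 of 41 members passed, against 30.8%. Each of the 3 is a single library's value and is described with its role below.

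SIS3 without injury was compared in the uninjured libraries. There 27 of 41 members were above 0 (33 without scaling), with a median of 0.07, against −0.01 for all genes and −0.05 for genes of at least 5 FPKM. Only tyms was called, lower, 1 of 41 against 3.24% of all genes in either direction (1.77% higher and 1.47% lower). At 1.5-fold, 3 of 41 passed, tyms lower and rpa2 and e2f1 higher, against 10.1%. After injury, SIS3 against DMSO gave 29 of 41 members below 0 (32 without scaling), a median of −0.05 and no call, against 4.33% of all genes (3.2% higher and 1.13% lower). At 1.5-fold, 1 of 41 passed (rfc5, lower), against 12.3%. Without scaling, the medians of the members were 0.165 without injury and −0.10 after it, beside 0.07 and −0.04 for all genes. These 2 comparisons share no library. Of the 41 members, 21 were above 0 without injury and below 0 after it, 6 the reverse, 6 above 0 in both and 8 below 0 in both. As shares of the members these were 51.2%, 14.6%, 14.6% and 19.5%, beside 23.0%, 24.2%, 25.2% and 26.4% of all genes compared.

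The difference of the injury change, SIS3 minus DMSO, was below 0 for 30 of 41 members (31 without scaling). Its median was −0.13, against 0.01 for all genes, and −0.28 without scaling, where the median of all genes was −0.11. It passed 2-fold for tyms (1.41) and rpa2 (−1.21), 2 of 41 against 8.04% of all genes (4.92% higher and 3.12% lower). At 1.5-fold, 7 of 41 passed, against 21.3%. Of all genes past 2-fold in this difference, 61.2% were higher, and 50.7% without scaling. With 1 library in each group the difference of 2 changes carries the error of all 4 libraries, and it was not tested.

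**Figure D2:**
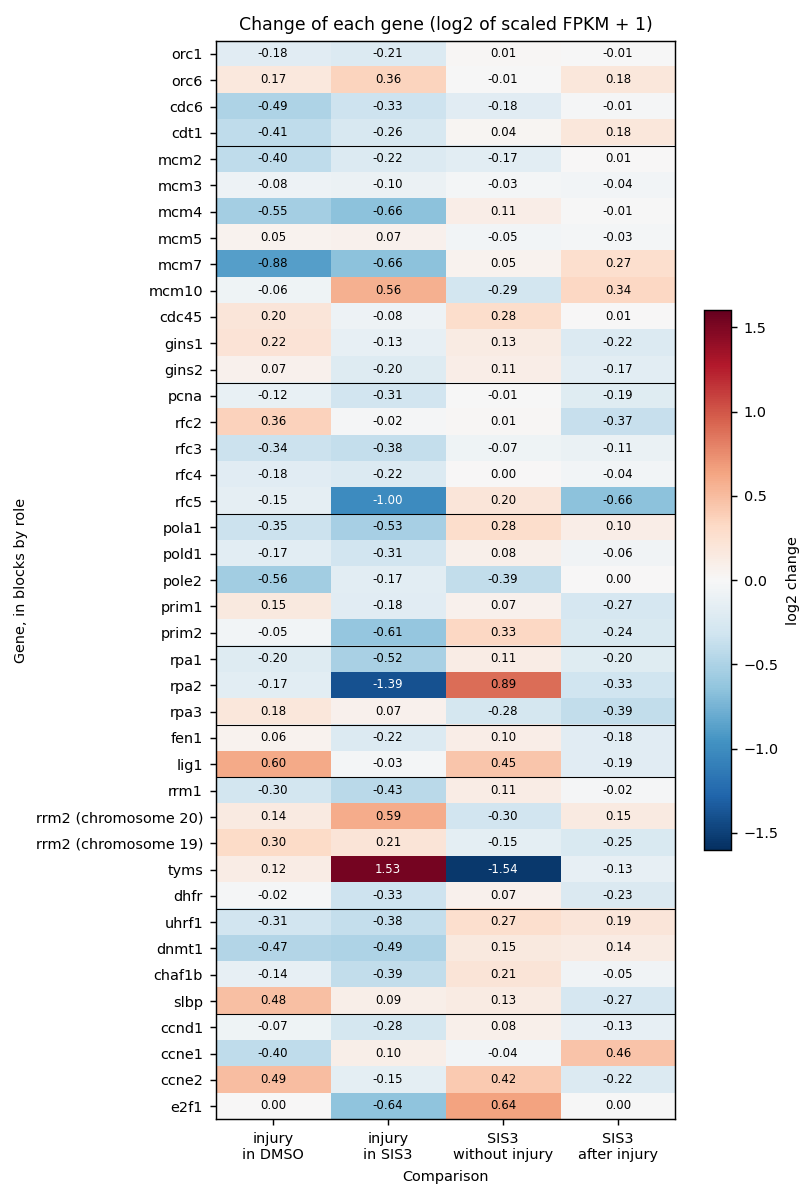
Change of each of the 41 genes in the 4 comparisons (log2 of scaled FPKM + 1, red higher and blue lower), with lines between blocks of different role. The cells past 1 or −1 belong to tyms, rpa2 and rfc5, and the column of injury in SIS3 holds 32 values below 0.

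Origin licensing was represented by 4 genes, whose median change was −0.30 with injury in DMSO and −0.23 with injury in SIS3, 3 of 4 below 0 in each (2 of 4 in DMSO without scaling). The loading factor cdc6 was at 18.3, 16.1, 12.7 and 12.6 FPKM. It was lower in both injured libraries, by −0.49 in DMSO and −0.33 in SIS3. Its partner cdt1, which brings the helicase to the origin, was at 9.21, 9.45, 6.70 and 7.76 FPKM, again lower in both injured libraries (−0.41 and −0.26). The large subunit of the origin recognition complex, orc1, was at 5.83, 5.91, 5.01 and 4.96 FPKM. The small subunit orc6 went the other way, at 7.97, 7.93, 9.09 and 10.4 FPKM. With SIS3 the changes of the 4 genes were small, between −0.18 and 0.04 without injury and between −0.01 and 0.19 after it. The opposite strand of orc6 overlaps mylk3, a myosin light chain kinase gene of cardiac muscle that was at 13.9, 28.3, 11.0 and 15.2 FPKM. The sources used here do not say whether counting used strand, so reads in the overlap cannot be assigned.

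The 5 listed subunits of the Mcm2 to Mcm7 helicase did not keep one order. They form 1 ring with equal numbers of each subunit. In uninjured DMSO the highest was mcm2 and the lowest mcm3, 1.90-fold apart, and in injured DMSO the highest was mcm5 and the lowest mcm7, 1.68-fold apart. The subunit mcm7 (chromosome 14, 149280 to 158526) was at 55.2, 57.2, 29.7 and 35.9 FPKM. Both injured libraries lay below both uninjured ones, with changes of −0.88 in DMSO and −0.66 in SIS3. Its neighbour in the ring, mcm4 (chromosome 24, 35648541 to 35673575), was at 56.6, 61.0, 38.4 and 38.2 FPKM and showed the same split, with changes of −0.55 and −0.66. The levels of mcm2 were 59.9, 53.1, 45.0 and 45.4 FPKM, lower in the injured libraries by −0.40 and −0.22. By contrast mcm5 was at 48.0, 46.3, 49.8 and 48.8 FPKM. After scaling this made it the steadiest of the 41 members, with a ratio of 1.08 between its highest and lowest library. The subunit mcm3 was nearly as level, at 31.4, 30.8, 29.7 and 28.8 FPKM. Without scaling, mcm3 differed less between the libraries than mcm5. The changes of these 5 genes with SIS3 lay between −0.17 and 0.11 without injury and between −0.04 and 0.27 after it.

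The value of mcm7 rests on last-exon entries, since its first exon was listed only in uninjured SIS3, at 0.697 FPKM. On the opposite strand the gene lies under tmem107, a gene of the cilium transition zone that overlaps it over 9247 bases and was at 16.8, 15.0, 3.80 and 9.95 FPKM. The levels of both genes were thus lower in the injured libraries and lowest in injured DMSO, and reads of one cannot be told from reads of the other without strand. The gene mcm3 also overlaps one on the opposite strand, the neuronal stmn4, at 7.27, 2.80, 0 and 0 FPKM, while mcm3 itself hardly differed.

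**Figure D3:**
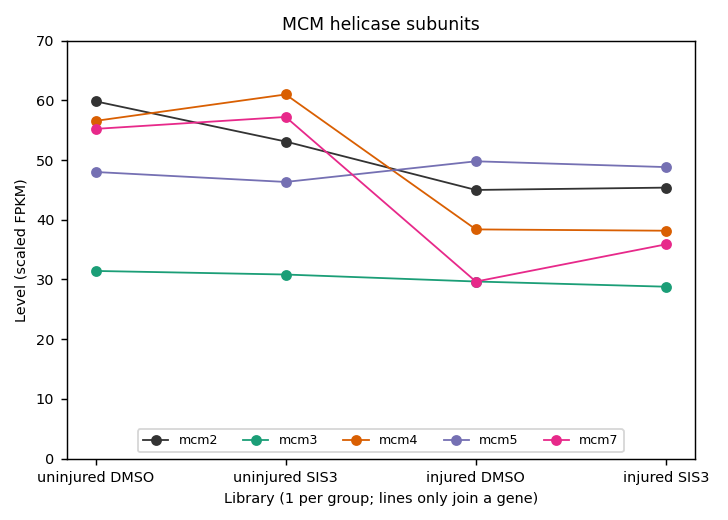
Levels of 5 MCM subunits in the 4 libraries (scaled FPKM, axis from 0; 1 library per group). The lines of mcm4, mcm7 and mcm2 step down between the uninjured and injured libraries, whereas mcm5 and mcm3 stay level.

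The factors that complete and activate the helicase did not share that step. The gene cdc45 was at 8.41, 10.5, 9.79 and 9.86 FPKM and lowest in uninjured DMSO. The GINS subunits gins1, at 13.8, 15.1, 16.2 and 13.7 FPKM, and gins2, at 20.3, 22.0, 21.3 and 18.9 FPKM, were above 0 with injury in DMSO (0.22 and 0.07) and below 0 with injury in SIS3 (−0.13 and −0.20). The same pair of signs was seen for cdc45 (0.20 and −0.08). The initiation factor mcm10, one of the lowest members, was at 3.23, 2.46, 3.05 and 4.11 FPKM, and went the other way, with −0.06 in DMSO and 0.56 in SIS3. For gins1 the counting is uncertain, since it overlaps srbd1 on the same strand (1.65, 1.19, 1.44 and 1.99 FPKM).

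Among the genes of the sliding clamp and its loader, pcna dominated. This gene encodes the ring that tethers DNA polymerases to the template and lies on chromosome 10 (40900618 to 40905269). It was at 306, 305, 281 and 246 FPKM, higher than 98.4% of all genes compared by its mean level, and it made up 21.9%, 21.6%, 21.4% and 20.5% of the summed level of all 41 members. It was 3.42-fold to 3.75-fold above the next member in each library. Its changes were small, −0.12 with injury in DMSO and −0.31 with injury in SIS3, and the lowest library was injured SIS3.

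The clamp loader opens pcna and closes it around DNA. All 4 loader genes among the members, and pcna, were below 0 with SIS3 after injury, from −0.04 to −0.66. On first-exon sums alone, however, rfc4 was above 0 (0.12). With injury in SIS3 all 5 genes were below 0 (4 of 5 without scaling). The loader subunit rfc5 (chromosome 5, 12028476 to 12049515) was at 20.01, 23.1, 18.0 and 11.0 FPKM. Injured SIS3 stood below the other 3 libraries, and the change with injury in SIS3 was −1.005, on the edge of the call. It fell short of 2-fold with a pseudocount of 5 FPKM (−0.81) and without scaling (−0.94). After scaling, injured SIS3 was also the lowest library for the other loader subunits among the members, by smaller margins. For rfc2 the margin to uninjured DMSO was slight, and without scaling uninjured DMSO was its lowest library. The subunit rfc2 was at 16.4, 16.6, 21.4 and 16.3 FPKM, high in injured DMSO alone. The subunits rfc3, at 24.3, 23.1, 18.96 and 17.5 FPKM, and rfc4, at 44.8, 44.9, 39.6 and 38.4 FPKM, were lower in both injured libraries. Without scaling, however, rfc4 was slightly higher in injured than in uninjured DMSO.

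Of the polymerase and primase genes, all 5 were below 0 with injury in SIS3 (median −0.31) and 4 of 5 with injury in DMSO (median −0.17, but 0.04 with 2 of 5 below 0 without scaling). The catalytic subunit of polymerase α, pola1, which extends the primer at each start, was at 9.77, 12.1, 7.45 and 8.08 FPKM. It was highest in uninjured SIS3 and lower in both injured libraries. The catalytic subunit of polymerase δ, pold1, which copies the lagging strand, was likewise highest in uninjured SIS3 and lower in both injured libraries, at 20.1, 21.4, 17.8 and 17.1 FPKM. Without scaling, however, pold1 was slightly higher in injured than in uninjured DMSO. The primase pair prim1 (23.9, 25.1, 26.7 and 22.0 FPKM) and prim2 (18.3, 23.2, 17.7 and 14.8 FPKM) were both lowest in injured SIS3. For prim1 this held only after scaling, as the lowest library was otherwise uninjured DMSO. The change of prim2 with injury in SIS3, −0.61, was one of the 8 past 1.5-fold, and with injury in DMSO it was −0.05.

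The accessory subunit of polymerase ε, pole2, was instead highest in uninjured DMSO, at 12.5, 9.29, 8.16 and 8.17 FPKM. That order rests on its last-exon sums. Its first-exon sums were 7.64, 8.78, 8.16 and 4.75 FPKM, highest in uninjured SIS3, with a change of 0.08 in place of −0.56 for injury in DMSO. The gene lies wholly within ppp1r21 on the same strand, over 5747 bases. That gene was at 21.5, 22.0, 6.82 and 17.2 FPKM, so the counting of pole2 could have split or shared its reads.

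Replication protein A, the trimer that coats single-stranded DNA at the fork, held the member with the lowest change with injury in SIS3. The middle subunit rpa2 (chromosome 16, 4917299 to 4940588) was at 26.7, 50.2, 23.5 and 18.6 FPKM. Uninjured SIS3 was high, and the other 3 libraries lay between 18.6 and 26.7 FPKM. The change was 0.89 with SIS3 without injury, short of 2-fold, and −1.39 with injury in SIS3, past it. The other subunits of the trimer did not share the high value in uninjured SIS3 to that extent. The large subunit rpa1 was at 59.6, 64.5, 51.6 and 44.8 FPKM, with changes of 0.11 and −0.52 in those comparisons. The small subunit rpa3 was at 41.1, 33.6, 46.6 and 35.3 FPKM, lower in both SIS3 libraries. With SIS3 after injury all 3 subunits were below 0 (−0.20 for rpa1, −0.33 for rpa2 and −0.39 for rpa3). The overlapping gene on the opposite strand of rpa2, themis2, was at most 0.347 FPKM in any library.

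Lagging-strand processing had 2 genes, both above 0 with injury in DMSO and below 0 with injury in SIS3 (1 of 2 below 0 in SIS3 without scaling, where lig1 was at 0.03). The DNA ligase lig1 (chromosome 2, 44448278 to 44491323), which seals Okazaki fragments, was at 10.7, 15.0, 16.8 and 14.6 FPKM. Uninjured DMSO was the low library, and the other 3 lay close together. Its change with injury in DMSO, 0.60, was the highest of the 41 members. The flap endonuclease fen1, which trims the same fragments, stayed between 37.3 and 43.6 FPKM.

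Nucleotide supply held the member with the widest span over the 4 libraries, 3.28-fold. Thymidylate synthase, tyms (chromosome 7, 71293904 to 71300188), makes the thymidine nucleotide used only in DNA and was at 52.5, 17.4, 57.2 and 52.2 FPKM. Uninjured SIS3 was low, and the other 3 libraries lay between 52.2 and 57.2 FPKM. The change was −1.54 with SIS3 without injury and 1.53 with injury in SIS3, and 0.12 and −0.13 in the 2 comparisons that do not use that library. First-exon and last-exon sums gave the same level in each library. Dihydrofolate reductase, dhfr, which regenerates the folate that thymidylate synthase uses, was level in uninjured SIS3 at 20.4, 21.5, 20.2 and 17.0 FPKM.

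Ribonucleotide reductase makes deoxyribonucleotides from ribonucleotides. Its large subunit rrm1 was at 82.4, 89.2, 66.8 and 65.8 FPKM, lower in both injured libraries (−0.30 and −0.43). The small subunit had 2 genes under the symbol rrm2. The one on chromosome 20 (29589590 to 29596547) was at 50.4, 40.7, 55.8 and 61.9 FPKM. The one on chromosome 19 (48003903 to 48010821) was at 62.7, 56.3, 77.5 and 65.1 FPKM. Both copies were thus higher in the injured library than in the uninjured one, in DMSO (0.14 and 0.30) and in SIS3 (0.59 and 0.21), with rrm1 the opposite. Reads of the 2 copies may have been split between them in counting, so their separate levels are uncertain. Their sum was 113, 97.0, 133 and 127 FPKM, and how far such a split affects the sum was not tested.

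Genes for the copying of chromatin were compared as 4 members, all above 0 with SIS3 without injury (0.13 to 0.27). The maintenance methyltransferase dnmt1 was at 20.6, 22.9, 14.5 and 16.0 FPKM. Its recruiting partner uhrf1, which binds hemimethylated DNA, was at 15.2, 18.5, 12.1 and 13.9 FPKM. Both were lower in the injured libraries, by −0.47 and −0.49 for dnmt1 and by −0.31 and −0.38 for uhrf1. The histone chaperone subunit chaf1b, which places histones on new DNA, stayed between 11.1 and 15.0 FPKM. The histone mRNA binding protein slbp had another order, at 23.4, 25.6, 33.0 and 27.3 FPKM, highest in injured DMSO.

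The G1/S cyclins and E2f1 were the regulators among the members. Cyclin D1, ccnd1, which carries growth signals to the cycle, was at 28.2, 29.9, 26.9 and 24.4 FPKM and differed little. The 2 cyclin E genes, which drive entry into S phase, went opposite ways. The gene ccne2 was at 10.2, 14.0, 14.7 and 12.5 FPKM, lowest in uninjured DMSO, and ccne1 at 4.12, 3.98, 2.87 and 4.33 FPKM, lowest in injured DMSO. With injury in DMSO their changes were 0.49 and −0.40. The transcription factor e2f1 was at 2.97, 5.19, 2.98 and 2.97 FPKM, high in uninjured SIS3 alone. Its first-exon entries alone summed to 4.24 FPKM in that library and its last-exon entries to 5.19 FPKM.

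Some members used alternative first or last exons in the uninjured DMSO library in particular. Shares of a gene's FPKM were compared between exons where the gene had at least 5 FPKM over the forms in all 4 libraries, which left 5 members with alternative first exons, 3 with alternative last exons and 6 with a cassette exon, an internal exon that can be included or skipped. The primase gene prim2 had 43.0% of its first-exon FPKM at an exon of 516 bases (chromosome 13, 23481359 to 23481874) in uninjured DMSO. In the other libraries that exon had 3.2%, 3.2% and 2.6%. The gene rrm2 on chromosome 20 had 32.0% at an internal first exon of 242 bases (29595098 to 29595339) in uninjured DMSO and 0.4%, 0.5% and 0.2% elsewhere. In gins2, a last exon of 149 bases (chromosome 18, 30487207 to 30487355) had 34.5% in uninjured DMSO and was not listed in the other libraries. The gene overlaps gse1 on the opposite strand over 13084 bases, and gse1 was at 13.0, 12.9, 8.76 and 8.04 FPKM, so reads in the overlap cannot be assigned without strand. These 3 genes were the members with a shift of at least 20 percentage points in first or last exons, and in each the shift involved that 1 library.

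Against both injured DMSO and uninjured SIS3, 2 of 5 members with alternative first exons and 1 of 3 with alternative last exons shifted by at least 20 points. Over all such genes, first exons shifted in 17.4% with injury in DMSO and 11.2% with SIS3 without injury, and last exons in 11.3% and 10.8%. In the other comparisons, injury in SIS3 (16.8% and 12% of all such genes) and SIS3 after injury (12.6% and 9.47%), no member did. With so few members these shares are values for single genes. The total level of prim2 in uninjured DMSO, 18.3 FPKM, includes 7.88 FPKM at the alternative exon, and 10.5 FPKM at the other first exon, which had 22.5, 17.1 and 14.4 FPKM elsewhere.

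Of the 6 members with a cassette exon, 1 passed 20 points. In rrm2 on chromosome 20, an exon of 100 bases (29595098 to 29595197) was included at 100%, 78.8%, 82.8% and 76.6%. The share was 21.2 points lower with SIS3 without injury, 1 of 6, against 10.8% of all cassette exons in that comparison. This exon lies within the internal first exon described above (29595098 to 29595339), so the first-exon and cassette shifts of this gene are not separate. In uninjured DMSO the included form was at 34.26 FPKM, the level of the upstream first exon. The shares thus leave out the 16.15 FPKM that started at the internal exon. With injury in DMSO none of the 6 passed 20 points, against 14.5%, and none did in the other comparisons, against 13.1% and 10.3%. In cdt1 an exon of 150 bases (chromosome 7, 55220472 to 55220621) was included at 87.9%, 91.7%, 77.1% and 86.3%, lowest in injured DMSO. In slbp an exon of 105 bases (chromosome 14, 14537490 to 14537594) was included at 96.5%, 95.1%, 96.6% and 87.6%, lowest in injured SIS3. Inclusion of an exon of 114 bases in rpa2 stayed between 96.5% and 100%, the latter in uninjured SIS3, where the gene was high. Below the 5 FPKM limit, ccne1 had its first exon split in injured DMSO alone, with 1.54 FPKM at one exon and 1.34 FPKM at the other, against 4.02, 3.86 and 4.23 FPKM at the first and at most 0.121 FPKM at the second in the other libraries. Also below that limit, a cassette exon of 117 bases in orc1 was included at 2.67, 3.24, 2.81 and 0 FPKM. It was skipped at 3.39, 2.84, 2.44 and 4.98 FPKM, so only the skipped form was listed in injured SIS3.

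**Figure D4:**
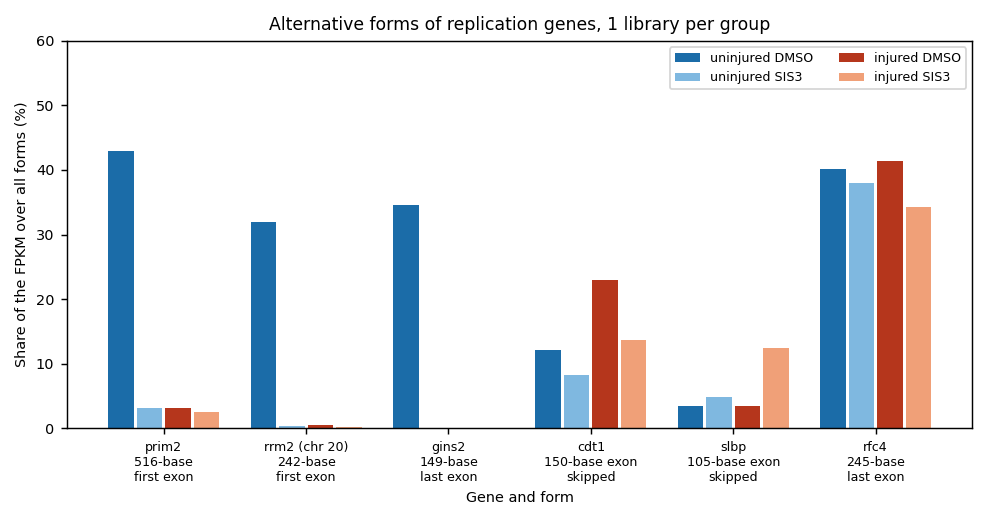
Share of a gene's FPKM at an alternative first or last exon, or with a cassette exon skipped, for 6 members in the 4 libraries (percent, axis from 0, 1 library per group). The bars of prim2, rrm2 on chromosome 20 and gins2 are tall in uninjured DMSO alone, whereas rfc4 had 34.3% to 41.4% at a last exon of 245 bases across the 4 libraries.

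Other genes of the same pathways, outside the 42 symbols, were taken from 5 lists of 99 symbols, of which 79 were listed and 76 passed the filter. Their counts below 0 were 35 of 76 with injury in DMSO, 55 with injury in SIS3, 29 with SIS3 without injury and 50 with SIS3 after injury. The medians were 0.01, −0.15, 0.06 and −0.07, so the 76 genes shared the sign of the 41 members in the last 3 of these comparisons. At 2-fold, 6.48%, 6.42%, 1.77% and 3.2% of all genes were higher in these comparisons, in the same order, and 8.82%, 6.68%, 1.47% and 1.13% lower. None of the 76 was at least 2-fold higher in any comparison, and 1 each was lower in the first 3. With injury in DMSO this was tfdp2, a partner of E2F factors, at 22.1, 16.0, 7.89 and 10.2 FPKM (−1.38). With injury in SIS3 it was cdc7, the kinase that fires origins, at 4.14, 5.25, 2.56 and 1.42 FPKM (−1.37). With SIS3 without injury it was orc3, a subunit of the origin recognition complex, at 15.2, 6.62, 19.2 and 12.7 FPKM (−1.09).

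Among the other examples, skp2, which marks the inhibitor p27 for destruction, was at 6.51, 9.94, 13.0 and 9.08 FPKM, high in injured DMSO. The thymidylate kinase gene dtymk, which acts next after tyms, was at 13.9, 16.8, 23.9 and 19.2 FPKM and did not share the low value of tyms in uninjured SIS3. Of 9 symbols of CDK inhibitors, the brakes on the G1/S transition, 4 genes were listed. The gene cdkn1a, which encodes p21, was at 30.5, 27.1, 41.5 and 21.8 FPKM, highest in injured DMSO and lowest in injured SIS3. The gene cdkn2d was at 2.81, 3.09, 0.450 and 0.701 FPKM and was the 1 of the 4 called, lower with injury in DMSO (−1.39) and in SIS3 (−1.27). Over all genes, 8.82% and 6.68% were called lower in those comparisons.

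Genes of the later phases of the cycle gave a comparison for the direction of the members. In a list of G2/M and mitosis genes, 33 passed the filter, and none was past 2-fold in any of the 4 comparisons. The shares of all genes called were 15.3% and 13.1% with injury (DMSO, SIS3), and 3.24% and 4.33% with SIS3 (without injury, after it). With injury in DMSO, 24 of 33 were above 0 (median 0.24; 31 of 33 without scaling), whereas 16 of the 41 replication genes were above 0 (29 of 41 without scaling). With SIS3 after injury, 29 of 33 were below 0 under either scaling, with a median of −0.25 against −0.05 for the replication genes. The levels of ccnb1, a mitotic cyclin, were 20.5, 21.9, 36.1 and 30.2 FPKM, higher in both injured libraries. The topoisomerase top2a, which separates copied DNA, was at 28.4, 32.5, 36.0 and 24.9 FPKM, and the mitotic kinase plk1 at 31.3, 23.2, 38.1 and 25.4 FPKM. Both were highest in injured DMSO, where pcna was not after scaling. With the deposited values unscaled, pcna was also highest in injured DMSO, by a small margin over uninjured SIS3. With injury in SIS3 the G2/M list lay below 0 for 23 of 33 genes, beside 32 of 41 replication genes. The difference between the lists was not tested.

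**Figure D5:**
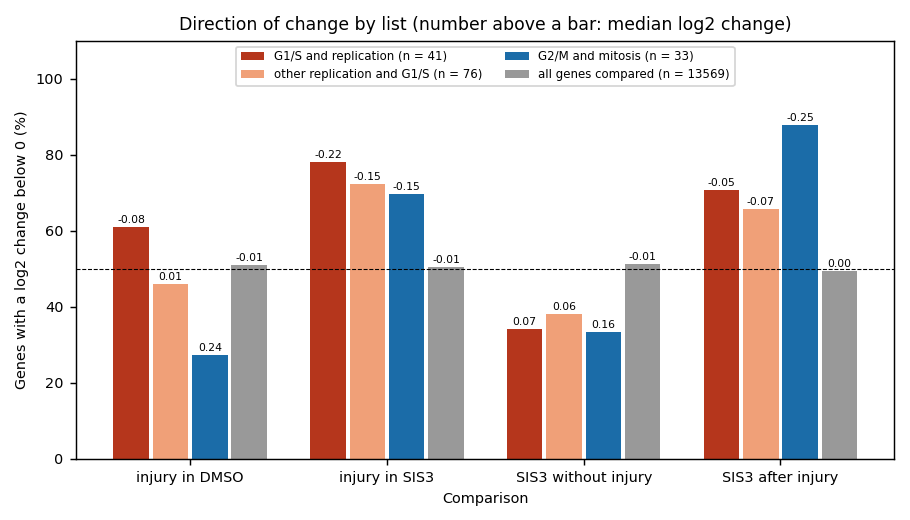
Percent of genes with a log2 change below 0 in each comparison (axis from 0, dashed line at 50%), for the 41 replication genes, 76 other replication and G1/S genes, 33 G2/M genes and all 13569 genes compared, with the median change above each bar. The replication genes lie at 61.0% and the G2/M genes at 27.3% with injury in DMSO, and both lists lie above 60% in the comparisons of injury in SIS3 and SIS3 after injury.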

How the data were processed

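RNA from dissected larval hearts was sequenced, 1 library per group, and each library was placed by its labels. The deposited values are FPKM, computed by the authors. The genome build GRCz10 and the tools HISAT2 2.0.5, CASAVA 1.8 and HTSeq 0.6.1 appear, without roles, in the submitters' processing notes, and the program behind the event tables was not given in the sources used here. Entries hold FPKM per transcript event rather than per gene, per the file headers, although gene-level FPKM had been assumed when the design was written. The level of a gene was therefore the larger of its summed first-exon and summed last-exon FPKM, with repeated entries used once. Both sums lay within 0.1% in all 4 libraries for 28 of the 41 genes. A gene not listed was set to 0, which can be a failed estimate. Read counts could not be recovered, so depth is unknown and no interval is given.

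Median-of-ratios scaling was applied to the libraries (log2 factors −0.11, −0.02, 0.11 and 0.06). Changes are differences of log2(scaled FPKM + 1), which understates low genes, for genes that averaged 1 FPKM or more. Calls were made at 2-fold, without a test. Exon shares were compared with at least 5 FPKM over the forms in every library, and a shift of 20 points was called. Of 18231 gene IDs in the tables, 17251 had a symbol in the reference table of names, and symbols were matched without case. Of the members, 9 overlap another gene, 7 of them on the opposite strand only. All members may be named. From each other list, genes past 2-fold in a pairwise comparison may be named, and the 2 with the largest change in injury in DMSO and in SIS3 after injury. The members and lists were chosen with earlier results of these data known. The steps were tested on simulated data. Python 3.11.15, numpy 2.4.6, pandas 2.3.3 and matplotlib 3.10.9 were used.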

Additional observations from a re-analysis of the deposited data

Results flagged for a closer look

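With 1 library per group, a gene stands out here when its injury change has opposite signs under DMSO and SIS3 and the difference between them passes 1.5-fold. None of these differences was tested. With a pseudocount of 5 FPKM, the differences of mcm10, lig1, ccne2 and e2f1 all fell short of 1.5-fold. Without scaling, mcm10 and lig1 lose the opposite signs, as mcm10 was then at 0.105 with injury in DMSO and lig1 at 0.03 with injury in SIS3, and the difference of mcm10 was 0.51, short of 1.5-fold. The injury change of the initiation factor mcm10 was −0.06 in DMSO and 0.56 in SIS3, a difference of 0.63 (0.626), at levels of 2.46 to 4.11 FPKM. That of the ligase lig1 was 0.60 in DMSO and −0.03 in SIS3, a difference of −0.64 (−0.635). For the cyclin ccne2 the changes were 0.49 and −0.15, a difference of −0.64 (−0.643), and its level is its last-exon sum, with a first exon listed in 1 of the 4 libraries. For the transcription factor e2f1 they were 0.003 and −0.64, a difference of −0.65 (−0.645). The sign in DMSO rests on a slight margin, 2.967 FPKM in the uninjured library against 2.975 FPKM in the injured one. The highest level of e2f1, 5.19 FPKM in uninjured SIS3, is its last-exon sum, and its first-exon sum there was 4.24 FPKM.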

How the results depend on the processing

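Each value was recomputed under 8 alternatives. These were a pseudocount of 5 or 0.1 FPKM, no filter, a filter at 5 FPKM, no scaling, scaling by a trimmed mean of log ratios, and first-exon or last-exon sums alone. No change past 2-fold reversed. The median of the members with injury in DMSO moved from −0.08 to 0.105 without scaling, and that of the difference of the injury changes from −0.13 to −0.28 (−0.283). The count past 2-fold with injury in DMSO went from 0 to 1 with first-exon sums (ccne2, 3.10). After injury with SIS3 it went from 0 to 1 with first-exon sums (ccne2, −3.10) and to 1 with last-exon sums (orc6, 2.57), genes whose first or last exon was listed in 1 library only. For single genes, 1473 of 1620 recomputed values were counted as unchanged. Values past 2-fold at first were so counted if they stayed past it, and the others if they also stayed within 0.1. Thus tyms with injury in SIS3 counted as unchanged at 1.35 with a pseudocount of 5 FPKM, from 1.53. Another 138 values moved by more than 0.1, 7 passed 2-fold and 2 lost it (rfc5 with injury in SIS3, −0.81 with a pseudocount of 5 FPKM and −0.94 unscaled). The counts of members highest in uninjured SIS3 and lowest in injured SIS3 were chosen after seeing the data, and ranged from 18 to 22 and from 17 to 21. The filter at 5 FPKM left 38 members. No paired analysis was possible because each group had 1 library, and for the same reason no library could be left out.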
